A study of Ovis aries with 41 samples.

Results

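Skin from the tip of the tail was compared between 4 rams homozygous for the A allele of HOXB13 (A/A) and 3 rams homozygous for the D allele (D/D). All belonged to the Improved Jezersko Solčava breed. A is the ancestral, short-tail allele, and D is the derived, long-tail allele that holds an insertion in the HOXB13 promoter. All animals were adults whose tissue was taken after slaughter, and the comparison was unpaired, since a ram has only 1 genotype. The members are the 14 tip libraries of the 41 libraries in the series, chosen by their position and genotype labels, and the 2 libraries of each ram were summed to 7 ram sums. The tail of D/D rams is longer, so D/D tips were taken at a greater distance from the base, and genotype, tail length and distance from the base cannot be told apart in these animals.

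HOX genes encode transcription factors that are laid out in clusters and are used in overlapping stretches of the body axis during development, the posterior ones in its last part. HOXB13 is the most posterior gene of the HOXB cluster, acts in the growing tail of the embryo and limits the extension of the axis in mice. Skin of adult mammals keeps a regional pattern of HOX genes, above all in its fibroblasts.

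The 7 ram sums held 25019844 to 37645752 counts, from libraries of 9381400 to 23431409 counts. Markers of basal keratinocytes, a cell type of the epidermis, summed to 20642 to 27379 CPM in A/A tips and 19410 to 25102 CPM in D/D tips. CPM are counts scaled to the same library size with edgeR's TMM factors. The tip of A/A ram 835507 stood apart. Its log2 CPM correlated with those of the other 6 rams at 0.89 to 0.93, against 0.969 to 0.984 among the others. The 23 tested genes of the wool follicle list, mostly keratins of the shaft and the inner root sheath together with follicle genes such as HOXC13, summed to 1421 CPM in this ram, against 17686 to 23030 CPM in the other A/A rams and 20496 to 38304 CPM in D/D. Sebaceous gland markers summed to 6412 CPM in it, against 2155 to 2387 CPM in the other A/A rams and 1498 to 2375 CPM in D/D. Values without this ram are given beside most results on gene lists. In bulk skin, fewer cells of a type and less RNA per cell cannot be told apart.

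HOXB13 had the largest separation of the genotypes among the posterior HOX genes. Its values were 6.54, 5.22, 3.38 and 4.06 CPM in A/A rams 835507, 871772, 871784 and 871932, against 1.04, 0.464 and 0.252 CPM in D/D rams 871787, 871868 and 871869. Every A/A ram lay above every D/D ram, and the lowest A/A value was 97 reads, against a highest D/D value of 25 reads. The gene spans chr11:37525009-37530787 of ARS-UI_Ramb_v3.0, the sheep assembly that the authors used. Means were 4.8 ± 1.38 CPM in A/A (SD, n = 4 rams) and 0.586 ± 0.409 CPM in D/D (SD, n = 3 rams). The log2FC, which is the log2 of A/A divided by D/D here and below, was 3.05 with a standard error (SE) of 0.51. The unadjusted p was 0.000331 in edgeR's quasi-likelihood test. After Benjamini-Hochberg adjustment over 17842 genes the adjusted p of edgeR was 0.458, while DESeq2 on the same ram sums gave an adjusted p of 1.23e-06. An exact two-sided permutation test of the ram labels over all 35 assignments gave p = 0.0571, which is the smallest p that 4 against 3 rams allow. With each ram left out, the log2FC stayed between 2.69 and 3.71, and it was 2.88 without ram 835507.

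The difference in HOXB13 was not seen at the tail base, where HOXB13 had 0 or 1 read in each of the 7 rams. At the mid-tail it had 12 to 128 reads in A/A rams and 1 to 5 reads in D/D rams, with a log2FC of 4.02 (SE 0.90). The tip minus base difference of the genotype effect could not be resolved for this gene (2.64, SE 2.90), since its base values rest on so few reads.

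No gene passed the test over all genes at the tip. In edgeR, 0 of 17842 genes (0%) had an adjusted p under 0.05. At an unadjusted p under 0.05 there were 1145 genes higher in A/A (6.42%) and 679 lower (3.81%). All A/A rams lay above all D/D rams for 1227 genes (6.88%) and below them for 1439 genes (8.07%). limma-voom also called 0 genes, with 992 higher and 787 lower at an unadjusted p under 0.05. DESeq2 on the ram sums called 50 genes higher in A/A (0.199% of 25179) and 11 lower (0.0437%) at an adjusted p under 0.05, of which 22 also passed the stricter thresholds of the study (adjusted p up to 0.01 with at least a doubling or halving, a log2FC beyond 1 in size). Of these 61 calls, 28 had LOC symbols and 15 were lncRNA genes in RefSeq. In DESeq2, 9 of them stayed called with each ram left out in turn, namely HOXB13, KCNMA1, OPRL1, VWA2, ST8SIA2, SPA17, LOC132659860, LOC132657839 and LOC101117049. Calls of DESeq2 fell to 23 without A/A ram 871932 and to 23 without D/D ram 871869, and were 76 without ram 835507. The genes below are described by their values, since none passed in edgeR.

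The 12 genes named on each side had the smallest p among non-LOC symbols averaging 1 CPM or more without overlap between the genotypes. On the higher side, several encode receptors, channels and adhesion molecules. Whether the kinds of gene named on either side are more frequent there than among all genes was not tested. KCNMA1, the pore-forming subunit of the large-conductance calcium-activated potassium channel, was at 24.3, 14.2, 20.6 and 21.7 CPM in A/A rams and at 6.21, 8.84 and 7.31 CPM in D/D rams. This gave a log2FC of 1.44 (SE 0.23, adjusted p = 0.000131 in DESeq2). OPRL1, the receptor of the neuropeptide nociceptin, had 14, 4.87, 5.65 and 8.54 CPM in A/A against 2.17, 1.96 and 1.91 CPM in D/D. The D/D rams were close together and the A/A rams were spread, with ram 835507 highest. Its log2FC was 2.04 (SE 0.40, adjusted p = 0.000984 in DESeq2), and 1.66 without that ram.

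ST8SIA2, which attaches polysialic acid to the neural cell adhesion molecule, had the narrowest A/A group of these genes, at 12.5, 12.2, 12.3 and 12.2 CPM, against 6.88, 6.46 and 5.51 CPM in D/D. Its log2FC was 0.97 (SE 0.16, adjusted p = 4.72e-05 in DESeq2). VWA2, a protein of basement membranes, had 6.21 to 7.76 CPM in A/A and 2.2 to 3.21 CPM in D/D, a log2FC of 1.26 (SE 0.23). Both genes, like the rest of the 12, were chosen for having no overlap between A/A and D/D rams. TFAP2B, an AP-2 transcription factor, averaged 90.7 ± 22.4 CPM in A/A (SD, n = 4) and 43.3 ± 4.72 CPM in D/D (SD, n = 3). The adhesion molecules ALCAM and SDK2 had log2FC values of 0.75 and 0.77. CCR8, a chemokine receptor of T cells, was at 2.81, 1.28, 1.22 and 1.06 CPM in A/A and 0.292, 0.355 and 0.18 CPM in D/D, and NCKAP1L, an actin regulator of blood cells, at 6.63 to 9.18 CPM in A/A and 3.5 to 4.28 CPM in D/D. FAM221B and PGGHG, a glucosidase that acts on the sugars of collagen, complete the 12 genes with log2FC values of 1.19 and 0.57. All 12 passed an adjusted p under 0.05 in DESeq2, and 11 of them did without ram 835507, where PGGHG had an adjusted p of 0.0773. The genes were chosen by p and absence of overlap on the same ram sums, which favours such calls. These counts are therefore no separate support.

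**Figure D1:**
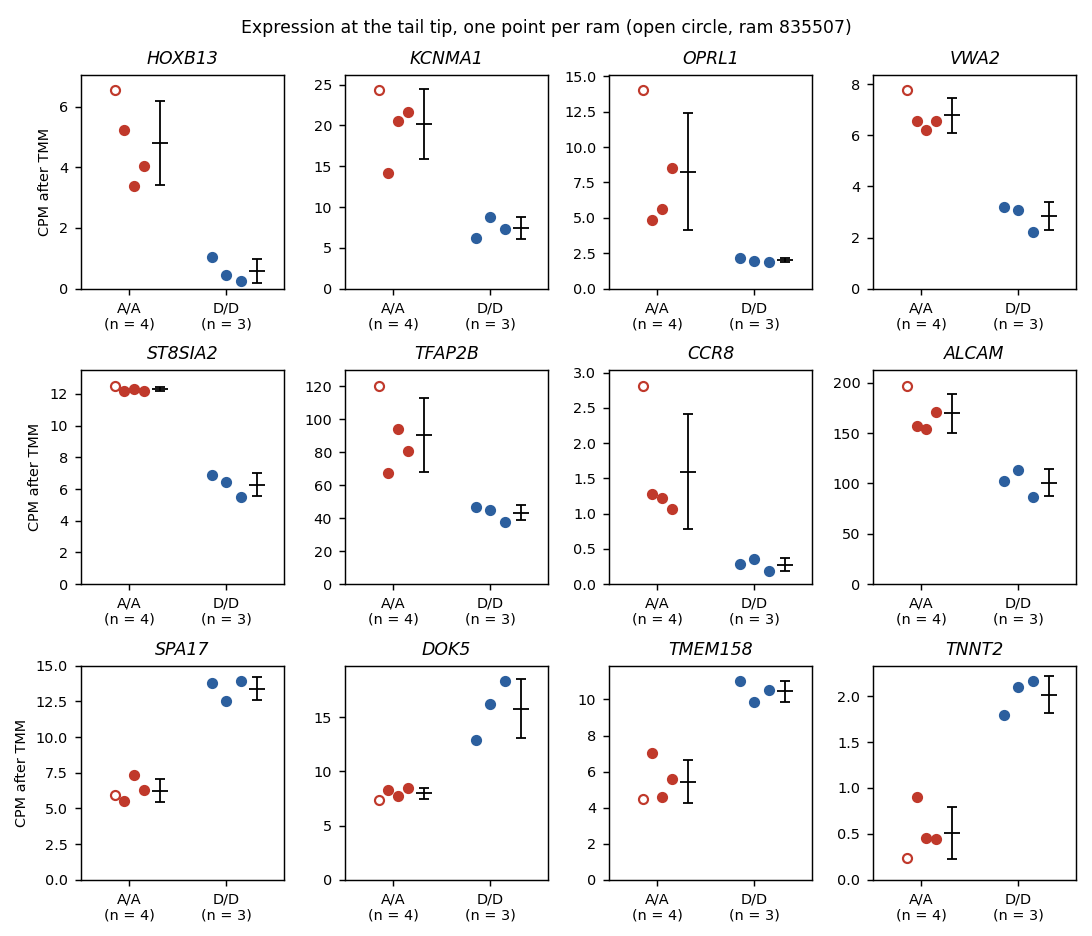
Expression of 12 genes at the tail tip in CPM after TMM, with 1 point per ram for A/A (left, red, n = 4) and D/D (right, blue, n = 3); bars give the mean and SD, and the open circle is A/A ram 835507. In the upper 8 panels every A/A ram lies above every D/D ram, as for HOXB13 with 3.38 to 6.54 CPM against 0.252 to 1.04 CPM, and in the 4 lower panels every A/A ram lies below. All 12 genes met a rule that requires no overlap at the tip.

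On the lower side, SPA17, a protein of the sperm flagellum and of cilia, had the smallest p of all genes tested in edgeR. It was at 5.94, 5.49, 7.32 and 6.26 CPM in A/A rams, against 13.8, 12.5 and 13.9 CPM in D/D rams, a log2FC of -1.10 (SE 0.17, unadjusted p = 0.000155 in edgeR, adjusted p = 1.85e-05 in DESeq2). DOK5, an adaptor protein of receptor tyrosine kinases, had 7.33 to 8.5 CPM in A/A and 12.9 to 18.3 CPM in D/D. TMEM158, a membrane protein induced by Ras signalling, had 4.46 to 7.04 CPM in A/A and 9.85 to 11 CPM in D/D. These 3 genes, like the others named on this side, were chosen for having no overlap between A/A and D/D rams. TNNT2, a troponin T of striated muscle, was at 0.231, 0.897, 0.453 and 0.447 CPM in A/A against 1.79, 2.1 and 2.16 CPM in D/D, a log2FC of -1.97 (SE 0.45, adjusted p = 0.0175 in DESeq2).

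Of the other 8 genes on the lower side, several are housekeeping genes of mitochondria and of RNA and ribosomes, among them IDH3B, a subunit of an enzyme of the citric acid cycle, PHB2, a prohibitin of the inner mitochondrial membrane, SLC25A22, a mitochondrial glutamate carrier, EIF6, a factor of ribosome assembly, and SF3A2, a splicing factor. IDH3B averaged 50.3 ± 1.78 CPM in A/A (SD, n = 4) and 66.6 ± 4.24 CPM in D/D (SD, n = 3), and the log2FC values of these 5 genes ran from -0.75 for SLC25A22 to -0.40 for IDH3B. AEN, an exonuclease induced by p53, had 5.18 to 10.6 CPM in A/A and 13 to 19.9 CPM in D/D (log2FC -1.10). CRYZ, a quinone reductase, and DTX2, a ubiquitin ligase, had log2FC values of -0.42 and -0.47. In DESeq2, 4 of the 12 genes on the lower side passed with all rams (SPA17, DOK5, TMEM158 and TNNT2), and 5 did without ram 835507, where AEN had an adjusted p of 0.0357. As on the higher side, the way the genes were chosen favours such calls.

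Beyond these 24 genes, DESeq2's calls past the stricter thresholds included CYSLTR1, a receptor for cysteinyl leukotrienes on immune cells, with 4.79, 4.62, 4.74 and 4.19 CPM in A/A and 2.21, 2.43 and 1.77 CPM in D/D. LOC101110577, which RefSeq lists as a V segment, had the largest log2FC of the genes named here (4.74, SE 1.06), at 93.3, 6.33, 8.68 and 54.9 CPM in A/A against 1.17, 1.99 and 1.37 CPM in D/D. Reads of such segments may be shared with near-identical copies, so its level is uncertain. LOC132659860, LOC132657839 and LOC105607491, all lncRNA genes, had log2FC values of 1.30, 1.97 and 1.56. LOC101117049 had 0.793 to 1.71 CPM in A/A and 0 to 0.18 CPM in D/D, and LOC101118374 had 4.01 to 6.23 CPM in A/A and 9.46 to 10.1 CPM in D/D.

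The panel of genes that the study followed by TaqMan was chosen on these samples, so its direction here is no independent evidence. Of its 7 genes, 4 passed the filter on low counts, and 1, HOXB13, had an unadjusted p under 0.05 on the higher side (6.42% of all genes). HOXA13, the posterior gene of the HOXA cluster, was at 7.23, 4.32, 2.89 and 6.06 CPM in A/A and 4.17, 7.55 and 3.39 CPM in D/D. The groups overlapped throughout, with a log2FC of 0.02 (SE 0.39) that ran from -0.20 to 0.44 with single rams left out. SP8, a transcription factor of the limb bud ectoderm, had 0.217 to 1.06 CPM in A/A and 0.292 to 0.436 CPM in D/D, and LOXL4, a collagen cross-linking oxidase, 1.3 to 1.5 CPM in A/A and 0.649 to 2.02 CPM in D/D. ALOX15, AGT and ACSM2B were below the filter. ACSM2B, a medium-chain acyl-CoA synthetase, reached 4.26 CPM in A/A ram 835507 and stayed between 0 and 0.327 CPM in the other 6 rams.

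The next group is that of the HOX genes outside the last paralog groups. Of 24 tested anterior and middle HOX genes, 23 had positive log2FC values, with a median of 0.43 against 0.018 for all tested genes. HOXA6 and HOXC5 had unadjusted p-values under 0.05 on the higher side (8.33%, against 6.42% of all genes). HOXB2 was under 0.05 on the lower side (4.17%, against 3.81% of all genes). In 5 of the 24 all A/A rams lay above all D/D rams (6.88% of all genes), and in 1 they lay below (8.07% of all genes). HOXA6 was at 18.5, 11.2, 12 and 7.97 CPM in A/A and 6.63, 5.67 and 5.66 CPM in D/D (log2FC 1.05, SE 0.29), and HOXC5 at 6.9 to 9.96 CPM in A/A and 4.61 to 5.84 CPM in D/D (0.75, SE 0.20). HOXB2 was at 1.91 to 3.56 CPM in A/A and 4.15 to 4.54 CPM in D/D (-0.71, SE 0.27). The summed CPM of the 24 genes was 307 in ram 835507, 201 to 217 in the other A/A rams and 163 to 202 in D/D, and without ram 835507 the median was 0.21 with 18 positive. The 10 tested posterior HOX genes had 5 positive values and a median of -0.02, or 4 and -0.09 without that ram. HOXC13, a posterior HOX gene that is also active in the wool shaft and is a member of the wool follicle list too, was at 22.6 CPM in ram 835507, 112.4 to 171.7 CPM in the other A/A rams and 135.3 to 223.3 CPM in D/D. The 9 HOX cofactors of the MEIS and PBX families had 8 positive values and a median of 0.36, or 0.14 without ram 835507.

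Genes beside HOXB13 on chromosome 11 were looked at because the rams were chosen by genotype at this locus. Within 1 Mb, 43 other genes were tested, of which 3 had an unadjusted p under 0.05 on the higher side and 2 on the lower side, near the shares of all genes. Separation without overlap was seen for 5 on the higher side (6.88% of all genes) and 4 on the lower side (8.07% of all genes). The members of the HOXB cluster nearest to it, HOXB9, HOXB8 and HOXB7, had log2FC values of 0.08, 0.02 and 0.13. SKAP1, an adaptor of T cell signalling that lies 259.9 kb away, was at 11.5 CPM in ram 835507 and 3.73 to 5.61 CPM in the other A/A rams, against 2.1 to 2.95 CPM in D/D (log2FC 1.25, SE 0.44, or 0.77 without that ram). ATP5MC1, a subunit of mitochondrial ATP synthase at 159.7 kb, had 11.2 to 14.9 CPM in A/A and 15.8 to 19.1 CPM in D/D (-0.42, SE 0.15). SCRN2, picked after its values were seen, lies 822.2 kb away and had a log2FC of 1.19 (SE 0.26).

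Markers of T and NK cells and of B and plasma cells had the highest medians of the 45 gene lists. All 14 tested T and NK cell markers were positive, with a median of 0.95. Of them, 3 had an unadjusted p under 0.05 on the higher side (6.42% of all genes) and 2 separated the groups (6.88% of all genes). Without ram 835507, 1 of the 14 was under 0.05 on the higher side, beside 984 of all 17634 genes tested then. CD4, the co-receptor of helper T cells, was at 1.92, 0.788, 0.732 and 1.02 CPM in A/A and 0.667, 0.327 and 0.216 CPM in D/D, and ICOS, a co-stimulator of activated T cells, at 5.02, 1.28, 1.71 and 0.976 CPM in A/A and 0.876, 0.3 and 0.18 CPM in D/D. Neither gene had overlapping groups, and ram 835507 was highest in both. The list summed to 40.5 CPM in ram 835507, 17.1 to 24.1 CPM in the other A/A rams and 13.2 to 16.5 CPM in D/D, and its median was 0.64 without that ram, with 14 positive.

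Of 19 macrophage and dendritic cell markers 17 were positive (median 0.56), with 5 at an unadjusted p under 0.05 on the higher side (6.42% of all genes) and 3 separated (6.88% of all genes). Without ram 835507, 3 of the 19 were under 0.05 on the higher side, beside 984 of all 17634 genes tested then. MRC1, the mannose receptor of tissue macrophages, had 27.9, 11.1, 10.6 and 10.3 CPM in A/A and 6.55, 5.07 and 4.47 CPM in D/D (log2FC 1.48, SE 0.41). STAB1, a scavenger receptor, had 15.6 to 20.5 CPM in A/A and 10 to 15.3 CPM in D/D. This list held its level without ram 835507, with a median of 0.54, and summed to 104 to 174 CPM in A/A against 94.6 to 103 CPM in D/D. B and plasma cell markers had 8 of 10 positive (median 0.96, or 0.69 without that ram), among them POU2AF1, a B cell coactivator, at 0.625 to 2.61 CPM in A/A and 0.036 to 0.491 CPM in D/D. Their summed CPM overlapped, at 154 to 218 in A/A and 134 to 215 in D/D. The 35 tested immunoglobulin and T cell receptor segments, a group formed after values were seen, had 31 positive. On the higher side, 6 had an unadjusted p under 0.05 (6.42% of all genes) and 2 separated the groups (6.88% of all genes). Without ram 835507, 27 segments were tested and 2 were under 0.05 on the higher side, beside the 984 of 17634 genes. The median of the group was 1.53 and moved between 0.70 and 3.77 with single rams left out.

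Adipocyte and sebaceous gland markers had their highest sums in ram 835507. Adipocyte markers had 14 of 18 positive (median 0.60), with 6 at an unadjusted p under 0.05 on the higher side (6.42% of all genes) and 1 separated (6.88% of all genes). Without ram 835507, 3 of the 18 were under 0.05 on the higher side and 1 on the lower side. Of all 17634 genes tested then, 984 and 666 were. PCK1, an enzyme of glyceride and glucose synthesis, had 0.353 to 2.2 CPM in A/A and 0.136 to 0.252 CPM in D/D, and ADIPOQ, the hormone adiponectin, had 132.9, 32.1, 86.7 and 165.3 CPM in A/A and 16, 55.1 and 23.1 CPM in D/D. The A/A and D/D rams overlapped in ADIPOQ. The list summed to 3899 CPM in ram 835507, 1122 to 1570 CPM in the other A/A rams and 1232 to 1406 CPM in D/D, and its median was 0.21 without that ram. Sebaceous gland markers had 16 of 17 positive (median 0.47), and 9 positive with a median of 0.08 without it. Schwann cell markers had 15 of 20 positive (median 0.34, or 0.14 without ram 835507). DRP2, a dystrophin-related protein of myelinating Schwann cells, was at 2.48 to 5.25 CPM in A/A and 1.23 to 1.77 CPM in D/D.

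**Figure D2:**
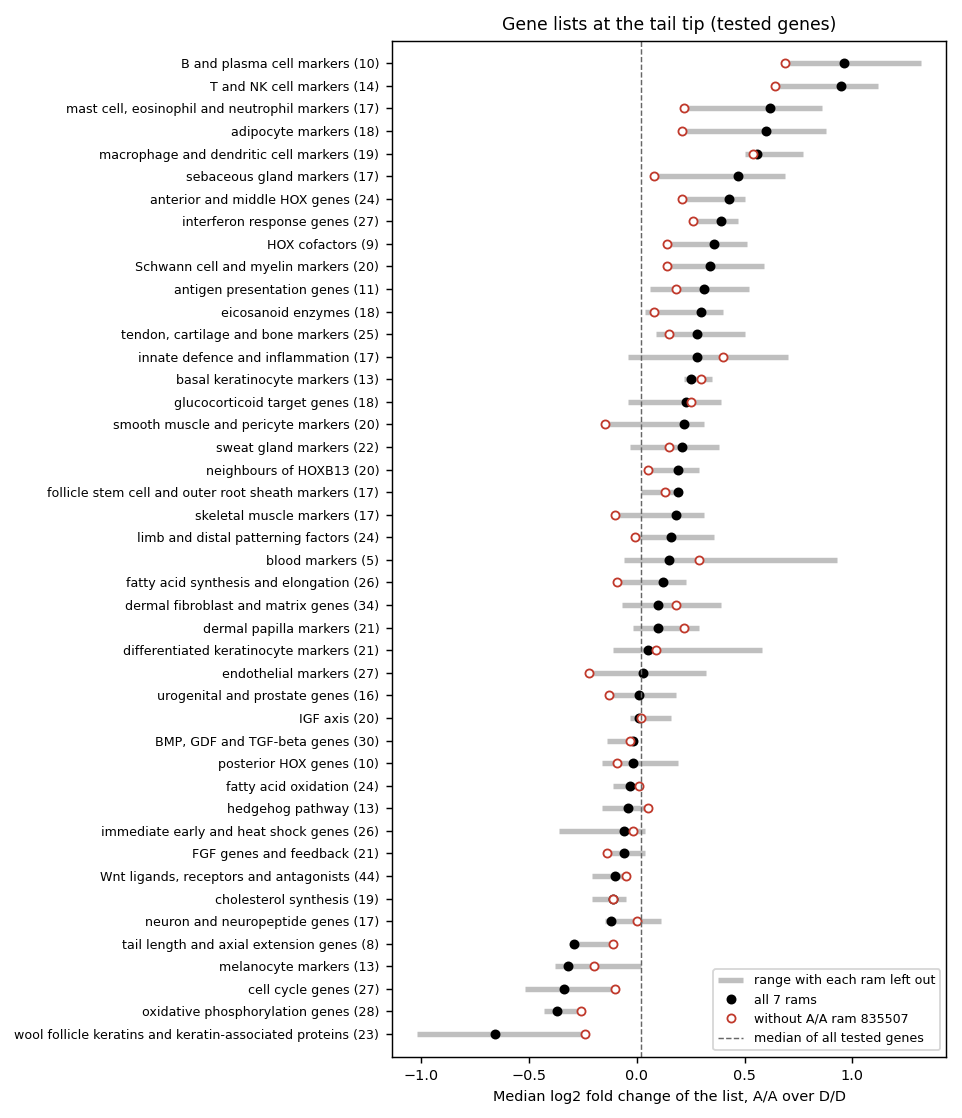
Median log2FC of A/A over D/D at the tip for each gene list with at least 5 tested genes (the number in brackets); black points use all 7 rams, open points leave out A/A ram 835507, grey bars span the medians with each ram left out, and the dashed line is the median of all tested genes (0.018). T and NK cell markers (0.95) and B and plasma cell markers (0.96) lie at the top, oxidative phosphorylation genes (-0.37) and the wool follicle list (-0.66) at the bottom, and most medians move towards 0 without ram 835507.

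Genes of oxidative phosphorylation, the mitochondrial chain that makes ATP, had the most members without overlap on the lower side among the 45 gene lists. Of 28 tested nuclear genes 27 were negative (median -0.37), 11 had an unadjusted p under 0.05 on the lower side (3.81% of all genes) and 18 had all A/A rams below all D/D rams (8.07% of all genes). NDUFS3, a core subunit of complex I, was at 24.1, 30.5, 30.6 and 29.2 CPM in A/A and 38.8, 38.4 and 44.4 CPM in D/D (log2FC -0.50, SE 0.13). SDHA, the catalytic subunit of complex II, was at 44.7 to 56.5 CPM in A/A and 59.3 to 69.9 CPM in D/D. The list summed to 1621 CPM in ram 835507, 2104 to 2280 CPM in the other A/A rams and 2487 to 2836 CPM in D/D. The groups did not overlap in these sums. Without ram 835507 the median was -0.26 with 1 gene positive. With library totals in place of TMM the median was -0.28, where the median of all genes was 0.116.

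Ribosomal protein genes, a group formed after values were seen, lay the same way. Of 77 tested, 74 were negative (median -0.24). On the lower side, 9 had an unadjusted p under 0.05 (3.81% of all genes). In 43 all A/A rams lay below all D/D rams (8.07% of all genes). Without ram 835507 the median was -0.18 with 3 positive. The 77 genes summed to 31506 to 35544 CPM in A/A and 39270 to 41068 CPM in D/D. Their many processed copies make single members uncertain. Cell cycle genes had 26 of 27 negative (median -0.34, or -0.10 with 7 positive without ram 835507). In 6 of them all A/A rams lay below all D/D rams (8.07% of all genes). PCNA, the sliding clamp of DNA replication, had 36.9 to 62.2 CPM in A/A and 68.8 to 91.7 CPM in D/D. For the wool follicle list 22 of 23 were negative (median -0.66), 0 had an unadjusted p under 0.05 and 0 separated the groups, and the median was -0.24 without ram 835507. KRT25, a keratin of the inner root sheath, was at 271.1 CPM in ram 835507, 3791 to 5010 CPM in the other A/A rams and 4759 to 8522 CPM in D/D.

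**Figure D3:**
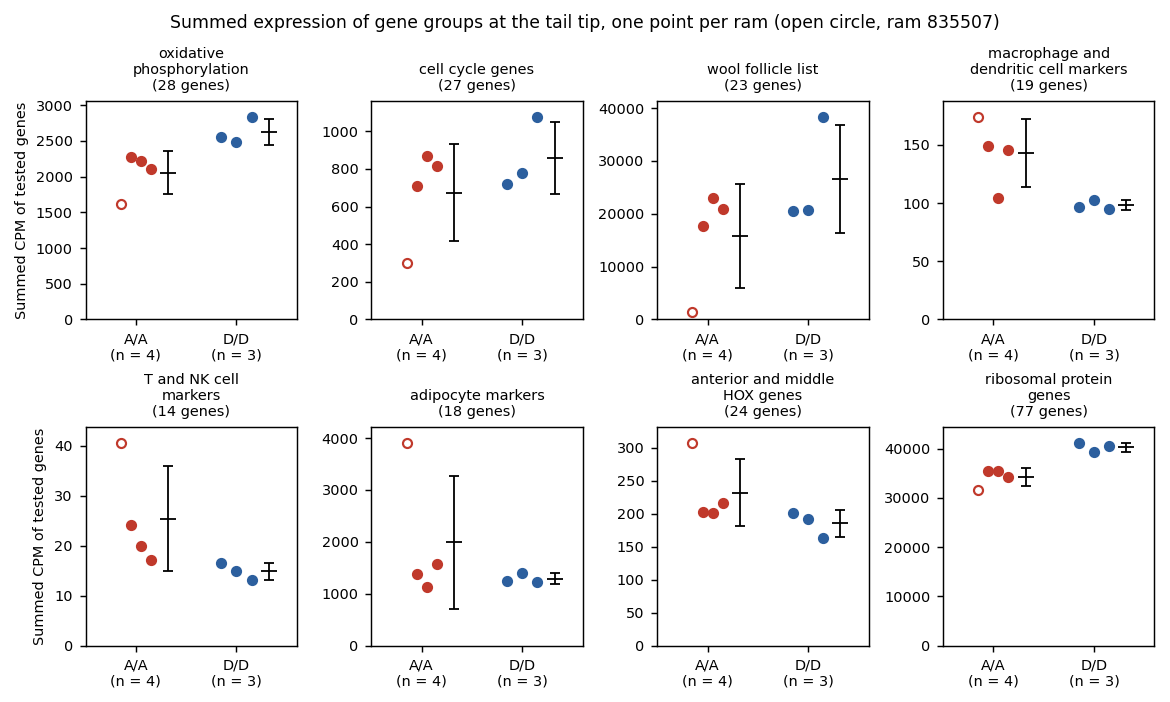
Summed CPM of the tested genes of 8 groups at the tail tip, with 1 point per ram for A/A (left, red, n = 4) and D/D (right, blue, n = 3), the mean and SD as bars, and A/A ram 835507 as an open circle. A/A and D/D do not overlap for oxidative phosphorylation genes (1621 to 2280 against 2487 to 2836 CPM) and ribosomal protein genes. They nearly touch for macrophage and dendritic cell markers (104 to 174 against 94.6 to 103 CPM) and T and NK cell markers (17.1 to 40.5 against 13.2 to 16.5 CPM). Wool follicle genes and adipocyte markers overlap apart from ram 835507.

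Signalling pathways were mixed. Of 13 hedgehog genes 6 were positive (median -0.04, or 0.05 with 8 positive without ram 835507), and the members with the smallest p went both ways. HHIP, a decoy receptor that binds hedgehog ligands, had 1.85 to 3.37 CPM in A/A and 4.38 to 7.53 CPM in D/D (log2FC -1.09, SE 0.30). CDON and BOC, which are co-receptors, and GLI2, the transcription factor of the pathway, had log2FC values of 0.74, 0.57 and 0.57. Among 44 Wnt genes 16 were positive (median -0.10, or -0.05 with 18 positive without that ram). LGR6, a receptor for R-spondins on skin stem cells, was at 11.6, 7.29, 6.42 and 9.35 CPM in A/A and 2.5, 2.78 and 0.612 CPM in D/D (log2FC 2.13, SE 0.50), and was the only member of this list that DESeq2 called. DKK1, a secreted Wnt antagonist, had 1.71 to 4.62 CPM in A/A and 0.757 to 1.36 CPM in D/D, and the ligands WNT2 and WNT5B had log2FC values of -1.09 and -0.75.

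In the skin structure lists, basal keratinocyte markers had 12 of 13 positive (median 0.25, or 0.30 without ram 835507). In 3 of them all A/A rams lay above all D/D rams (6.88% of all genes). Among the 3 was COL7A1, the collagen of anchoring fibrils, at 33.2 to 64.7 CPM in A/A and 12 to 27.8 CPM in D/D. Dermal fibroblast and matrix genes had 21 of 34 positive (median 0.10, or 0.18 with 26 positive without it). In 2 members all A/A rams lay above all D/D rams (6.88% of all genes). LOXL3, a lysyl oxidase, had 16.4 to 23.2 CPM in A/A and 7.96 to 12.5 CPM in D/D. COL12A1, a collagen associated with fibrils, had 395.8 to 466.9 CPM in A/A and 192.3 to 342.3 CPM in D/D. The 13 negative members included LOXL2, at 19 to 22.5 CPM in A/A and 22.3 to 37.7 CPM in D/D (log2FC -0.43, SE 0.19). The sums of the list overlapped, at 8871 to 19678 CPM in A/A and 10318 to 20042 CPM in D/D. Limb and distal patterning factors had 15 of 24 positive (median 0.16). Of them 1, TBX18, had an unadjusted p under 0.05 on the higher side (4.17%, against 6.42% of all genes). Without ram 835507 this list had 10 of 23 positive, a median of -0.01 and 0 members under that threshold, TBX18 included. FGF genes and BMP, GDF and TGF-beta genes had medians of -0.06 and -0.02, and of -0.14 and -0.03 without that ram.

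The log2FC of A/A over D/D rose with the size of a gene in the annotation, though not every A/A ram showed this. When the protein-coding genes were ranked by their span and split into 10 equal groups, the median log2FC was -0.20 in the group with a median span of 1.6 kb and 0.23 in the group with a median span of 246.4 kb. Of the shortest group, 7.55% had an unadjusted p under 0.05 on the lower side and 0.881% on the higher side, against 0.818% and 13.9% in the longest group. Ram 835507 was at the far end, but the medians were -0.15 and 0.17 without it. At the mid-tail they were -0.13 and 0.19, and at the base -0.09 and 0.18. The tested lncRNA genes, a group formed after values were seen, had 1310 of 1729 positive (median 0.40, or 0.31 without ram 835507). Of the 1729, 210 had an unadjusted p under 0.05 on the higher side (6.42% of all genes) and 10 on the lower side (3.81% of all genes). Their median span was 11.3 kb. Protein-coding groups with median spans of 8.7 and 13.2 kb had medians of -0.08 and -0.06, so the lncRNA genes lay apart from protein-coding genes of like span. The genes of oxidative phosphorylation and the ribosomal protein genes have short spans, with medians of 9.4 and 3.7 kb, while the T and NK cell markers have a median of 18.5 kb, close to the 23.9 kb of all protein-coding genes. The part of gene span, and of what moves with it, in the results above was not tested.

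**Figure D4:**
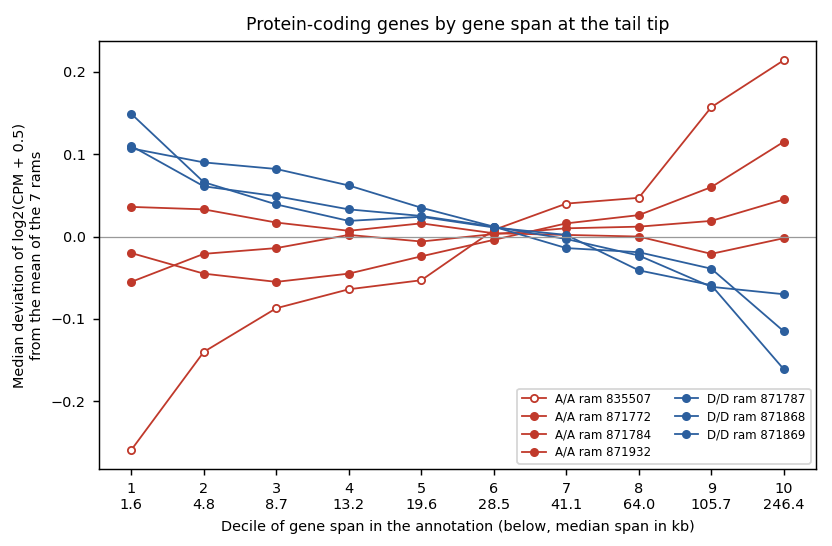
Median deviation of log2(CPM + 0.5) from the mean of the 7 rams for protein-coding genes in 10 groups of rising gene span (horizontal axis, with the median span in kb), with 1 line per ram, A/A in red and D/D in blue. The 3 D/D rams fall with span, from 0.107 to 0.149 in the shortest group to -0.161 to -0.070 in the longest, A/A ram 835507 runs the other way most steeply (-0.259 to 0.214), and A/A ram 871772 is close to flat.

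Of the 12 genes on the higher side named first, 5 also had all A/A rams above all D/D rams at the mid-tail and 3 at the base, and of the 12 on the lower side 4 and 3 were separated in the same direction at these positions. The same rams gave all positions. Several lists also moved the same way at the mid-tail. The medians at the mid-tail and the base were 0.66 and 0.35 for T and NK cell markers. They were 0.48 and 0.15 for macrophage and dendritic cell markers, and -0.28 and -0.15 for oxidative phosphorylation genes. Ribosomal protein genes had -0.26 and -0.02. Anterior and middle HOX genes had 0.23 at the mid-tail and -0.25 at the base. The log2FC of KCNMA1 was 1.18 at the base, 1.89 in the middle and 1.44 at the end of the tail, and that of SPA17 was -0.80, -0.87 and -1.10. These 24 genes were chosen by their p at the tip, which favours a larger difference there, so their tip minus base values are descriptions and are given without a test. VWA2 was at 1.83 to 3.42 CPM in A/A and 2.43 to 2.59 CPM in D/D at the base, with a tip minus base difference in log2FC of 1.11 (SE 0.33). OPRL1 was at 3.85 to 6.43 CPM in A/A and 3.04 to 4.45 CPM in D/D at the base, with a difference of 1.61 (SE 0.42). For AEN it was -0.97 (SE 0.21). Over all genes, 0 passed an adjusted p under 0.05 in edgeR when the ram entered as a block (smallest adjusted p 0.334), with 791 positive and 368 negative differences at an unadjusted p under 0.05, so no gene is shown to differ between the genotypes at the tip more than at the base.

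**Figure D5:**
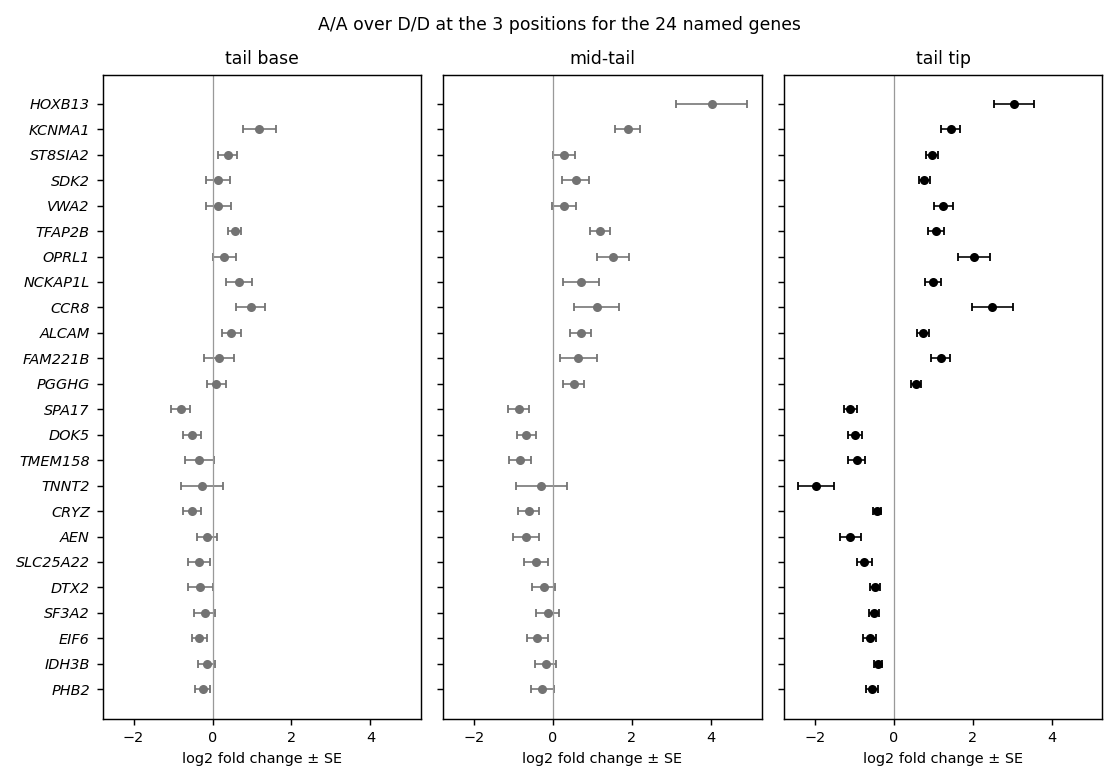
Genotype log2FC with its SE at the tail base, the mid-tail and the tip (left to right) for the 24 genes with the smallest p and no overlap at the tip, 12 on the higher and 12 on the lower side; HOXB13 was not tested at the base, where it had 0 or 1 read per ram. KCNMA1 is at 1.18, 1.89 and 1.44 and SPA17 at -0.80, -0.87 and -1.10, whereas VWA2 is at 0.15, 0.28 and 1.26 and TNNT2 at -0.27, -0.30 and -1.97.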

How the data were processed

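Oligo(dT)-selected RNA of tail skin was made into libraries with the CorALL kit and sequenced as paired reads of 60 bp. The authors checked the reads with FastQC 0.11.9, mapped them with ContextMap (on BWA) to the sheep assembly ARS-UI_Ramb_v3.0, and used featureCounts to count reads of each RefSeq gene on its strand. The featureCounts version is not stated in the sources at hand. What they deposited is a table of raw counts for 31182 genes, of which 0 columns were left out. In the units table the tip columns are named estimated count, since an automatic check took part of their names for a position, but the deposited numbers are whole counts like the rest, and rounding changed nothing. The 2 libraries of a ram were summed, since they come from 1 animal; their counts differed by more than sampling noise in every ram.

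For A/A against D/D, edgeR 4.0.16 (R 4.3.3) was run on the ram sums as a quasi-likelihood test, after TMM and its own filter for low counts. DESeq2 1.42.0 and limma-voom (limma 3.58.1) served as alternatives, with Benjamini-Hochberg adjustment over all genes. DESeq2 gave no adjusted p for 6283 genes, which were left as missing. The exact test used log2(CPM + 0.5) in scipy 1.17.1. The difference between tip and base was an interaction with the ram as a block. The scripts were tested on simulated data. Of the tested genes 99.7% had an entry by symbol in the RefSeq table of the same build, which gave spans and coordinates.

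The comparison, the 45 gene lists and the rules were chosen with earlier results of these data known. Genes are named by rule: HOXB13 and the study's panel, the 12 genes with the smallest p on each side among non-LOC symbols averaging 1 CPM or more without overlap, 4 per list by p, and up to 10 per side of DESeq2's calls past the study's thresholds. The study's methods text names fewer A/A rams than its list of animals and the labels, which both give 4, and all 4 were used.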

Additional observations from a re-analysis of the deposited data

Results flagged for a closer look

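In the 4 A/A tips, 1 ram lay apart from the other 3 beyond Dixon's critical value for 10 of 84 values checked, of which chance flags about 1 in 20. The ratio of the gap to the range was 0.967 for ACSM2B (4.26 CPM in ram 835507) and 0.874 for CCR8 (2.81 CPM in ram 835507). It was 0.835 for PGGHG (42.2 CPM in ram 871772, the lowest) and 0.958 for CRYZ (37.7 CPM in ram 871932, the highest). Among summed lists, ram 835507 was highest in anterior and middle HOX genes (0.852), fatty acid oxidation genes (0.952), adipocyte markers (0.839), sebaceous gland markers (0.945) and tendon, cartilage and bone markers (0.835), while ram 871772 was apart in hedgehog genes (0.845).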

How the results depend on the processing

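The count of genes with an adjusted p under 0.05 stayed at 0 in edgeR with RLE, library totals, no filter, a filter of 1 CPM in 3 ram sums, each library of a ram alone, all 21 ram sums sharing 1 spread and each ram left out, and in limma-voom. It was 61 in DESeq2 on the ram sums and 23 to 113 there with single rams left out, a setting added after seeing the data. With the 14 libraries as separate samples, which counts each ram 2 times, edgeR called 95 genes, and 41 with the library number as a replicate block. DESeq2 with the study's design on all 41 libraries, which also matches rams across genotypes by a running number, called 3355. At the study's thresholds these counts were 0 in edgeR, 22 in DESeq2, 5 to 39 with single rams left out, 2 and 1 for single libraries without and with the block, and 632 with the study's design. The library number shared by rams is only a name and pairs nothing.

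The log2 fold change of HOXB13 was 3.04 in DESeq2, 3.08 and 3.07 for single libraries without and with the block (adjusted p = 0.0045 and 0.0101 in edgeR) and 3.09 with the study's design, and in these settings it passed the test. With single rams left out it was 2.69 to 3.71 in edgeR or DESeq2, and passed in DESeq2 each time and in edgeR never (adjusted p = 0.402 to 0.798). Its exact p was 0.0571 with 0.1 or 1 CPM added. HOXA13 was -0.03 in limma-voom, -0.13 with library 2 and -0.00 without a filter, -0.20 to 0.44 in edgeR with single rams left out and as low as -0.21 in DESeq2. LOXL4 was 0.07 in limma-voom, 0.01 and 0.12 for single libraries without and with the block, 0.72 with library 2, 0.03 with the study's design, 0.01 with library totals and -0.43 to 0.27 with single rams left out in either tool. SP8 was -0.03 in DESeq2 without ram 871932 and ran up to 0.82 with single rams left out. Of the list medians under all other settings, 1082 moved by less than the spread between rams and 88 by more. The causes were not tested. With 4 and 3 rams, small differences are not detectable.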
